A study of Mus musculus with 34 samples.

Results

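The MS4A genes of macrophages that were described here are Ms4a4a, Ms4a4c, Ms4a6b, Ms4a6c, Ms4a6d and Ms4a7. They were chosen by name, as the myeloid members of the MS4A family on mouse chromosome 19, and are 6 of the 32098 genes listed for each library. All 6 were listed in every library and all 6 passed the filter on low values at every time. The libraries were made from the stromal vascular fraction (SVF), the pelleted cells left after fat is digested with collagenase and its floating adipocytes are removed. The visceral fat came from male C57BL/6J mice that began their diet at 6 weeks of age and stayed on it for 8, 20 or 34 weeks, so that they were 14, 26 or 40 weeks old at the end. HFD mice ate D12492 with 60% of the kcal from fat, and CHOW mice ate a control diet, D12450B or D12450K. CHOW was represented by 4, 5 and 7 libraries at 8, 20 and 34 weeks and HFD by 6 at each time, with no genetic change in any group. The SVF is a mixture, no cell type was sorted, and fewer macrophages in the pellet cannot be told apart from less RNA of a gene per macrophage.

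MS4A proteins cross the membrane in a tetraspanin-like fold and sit beside signalling receptors, where they tune the signal. The family is spread over blood lineages: Ms4a1 encodes CD20 of B cells, Ms4a2 the beta chain of the high-affinity IgE receptor of mast cells, and the genes described here belong mostly to monocytes and macrophages. MS4A4A, the human counterpart of Ms4a4a, lies with the beta-glucan receptor dectin-1 at the macrophage surface and has been tied by human genetics to the level of soluble TREM2, while Ms4a7 is a common marker of tissue macrophages. In fat, resident macrophages along vessels are known to be joined in obesity by lipid-associated macrophages that carry TREM2.

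The 6 genes lie within 1 stretch of chromosome 19 (GRCm38). From the lower coordinate upward the order is Ms4a7 (11321039 to 11336146, minus strand), Ms4a4a (11375523 to 11392790, plus), Ms4a4c (11404770 to 11427246, plus), Ms4a6c (11469366 to 11482192, plus), Ms4a6b (11516512 to 11531256, plus) and Ms4a6d (11586604 to 11604849, minus). All are protein coding. The paralogs share sequence, which bears on how reads were divided among them. Of the 31-base words in the coding transcripts of Ms4a6c, 23.6% also occurred in transcripts of other genes, most of them in Ms4a6b (14.7%). The shared portion was 17.1% for Ms4a4c, with Ms4a4b as its main partner (12.99%), 12.9% for Ms4a6b and 7.503% for Ms4a6d. For Ms4a7 and Ms4a4a it was 0%, so the values of Ms4a7 and Ms4a4a did not depend on dividing reads with a paralog, while those of the Ms4a6 genes and of Ms4a4c partly did. The summed level of Ms4a6b, Ms4a6c and Ms4a6d does not depend on how reads were divided among these 3.

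RefSeq promoter windows (GRCm38.p6), the 250 bases before the annotated start, were used for Ms4a7, Ms4a4a, Ms4a4c, Ms4a6c and Ms4a6b, 5 of the 6 genes, without Ms4a6d. For Ms4a4c and Ms4a6b the RefSeq start lies inside the gene limits given above. They are shown so that the starts of paralogs that share transcript sequence can be set beside those of genes that do not. Ms4a6c and Ms4a6b hold the same 30 bases around the motif AGGAAGT, a purine-rich sequence of the kind that PU.1 and other ETS factors bind, printed in capitals. The Ms4a6c block is chr19:11469336-11469365 and the Ms4a6b block chr19:11518458-11518487, both on the plus strand.
Ms4a6c: gggactttctgatatAGGAAGTacaggcac
Ms4a6b: gggactttctgatatAGGAAGTacaggcac
Aligned at this motif, 68 of 97 bases matched between the genes, with 48 matching bases in a row. The motif began at -17 from the start in Ms4a6c and at -86 in Ms4a6b, and Ms4a6b held it again at -43 on the other strand. The windows of the remaining genes are printed as the last 100 bases before the start, in the direction of the gene, with the shorter core GGAAGT (on either strand) in capitals. They are chr19:11336147-11336246 (minus strand) for Ms4a7, chr19:11375388-11375487 (plus) for Ms4a4a and chr19:11407561-11407660 (plus) for Ms4a4c.
Ms4a7: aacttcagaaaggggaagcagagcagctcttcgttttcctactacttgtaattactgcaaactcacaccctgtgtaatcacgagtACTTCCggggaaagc
Ms4a4a: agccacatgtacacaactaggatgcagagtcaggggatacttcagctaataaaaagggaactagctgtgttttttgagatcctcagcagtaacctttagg
Ms4a4c: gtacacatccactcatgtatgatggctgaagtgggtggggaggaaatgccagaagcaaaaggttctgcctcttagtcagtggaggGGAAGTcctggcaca
The core began at -15 in both Ms4a7 (on the other strand) and Ms4a4c, and neither these windows nor that of Ms4a4a held the full AGGAAGT. A further RefSeq start of Ms4a7 had neither. AGGAAGT, which contains GGAAGT, occurred on either strand in 7.69% of all 32851 promoter windows of 250 bases, and GGAAGT in 19.7%. These letters were searched after the sequences had been seen, and they describe sequence only.

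Every library held macrophage RNA. The summed level of 10 pan-macrophage genes was between 3343 and 15730 TPM (a length-corrected share of the library's transcripts, scaled to a total of 1000000), and all 10 were tested at each time. Some libraries also carried RNA of other tissues. Germ cell genes summed to 2362, 2893 and 12422 TPM in HFD 20 week replicates 3, 4 and 5 to 5074 and 5472 TPM in HFD 34 week replicates 1 and 2 and to 1132 TPM in HFD 8 week replicate 4, seminal vesicle genes to 120781 TPM in HFD 8 week replicate 3, and adipocyte genes to 15357, 59028 and 18797 TPM in CHOW 34 week replicates 5, 6 and 7. CHOW 34 week replicate 6, with the most adipocyte RNA, had the lowest level of each of the 6 genes in its group. TPM is a share, so RNA of another tissue takes part of a library's total. The part of this in the levels of the 6 genes was not tested. HFD 20 week replicate 3, with germ cell RNA, had the highest Ms4a7, Ms4a4a, Ms4a6b, Ms4a6c and Ms4a6d of its group. For some tests of single members and of the ratio of Ms4a7 to Ms4a4c, results are also given without the libraries named here for germ cell, seminal vesicle or adipocyte RNA. In those results HFD 8 week replicate 4 stays in unless it is named. The summed levels, the shares, the order of levels, the ratio of Ms4a7 to Ms4a4a, the likeness between genes and the gene lists are given with all libraries only. Hemoglobin genes were present in every library, from 7082 TPM in HFD 34 week replicate 5 upward. They summed to 267366 TPM in HFD 8 week replicate 6 and to 129729 TPM in CHOW 20 week replicate 5. No set of libraries was left out for hemoglobin RNA, though each library was left out in turn.

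Ms4a7 was the gene that was higher on HFD at 20 weeks. On CHOW its 20 week levels were 97.0, 116, 80.1, 98.1 and 102 TPM, and on HFD the lowest, median and highest of 6 libraries were 139, 207 and 318 TPM. All HFD libraries lay above all CHOW libraries. The mean was 98.5 ± 12.7 TPM on CHOW and 213 ± 70.0 TPM on HFD (SD, n = 5 and 6). The log2 fold change was 1.05 (SE 0.30, 95% interval 0.43 to 1.67), a 2.07-fold difference that passed the test (limma, adjusted p = 0.0240). The call was lost when CHOW replicate 3 (adjusted p = 0.0642), CHOW replicate 4 (adjusted p = 0.0531) or HFD replicate 3 (adjusted p = 0.0551) was left out, with log2 fold changes between 0.92 and 1.16 over all 11 libraries left out in turn. Of all 16808 genes tested in this comparison 14.3% passed it, 9.32% as higher and 4.99% as lower, and 9.19% had groups that did not overlap. At 8 weeks the levels on CHOW were 86.3, 68.7, 108 and 71.3 TPM and those on HFD ran from 35.4 over a median of 66.3 to 156 TPM, so that the CHOW values lay inside the HFD range.

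Ms4a4a, the dectin-1 partner, was lower on HFD at 20 weeks. Its CHOW levels were 143, 191, 80.9, 132 and 110 TPM, and on HFD they ran from 29.6 over a median of 55.2 to 129 TPM. Only HFD replicate 3 reached the CHOW range, since the next highest HFD library stood at 66.4 TPM. The means were 131 ± 41.0 and 63.1 ± 34.9 TPM, and the log2 fold change was -1.14 (SE 0.32, limma adjusted p = 0.0222). Without CHOW replicate 4 the same test gave an adjusted p of 0.0529.

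Ms4a4c, known from inflammatory monocytes, also was lower on HFD at 20 weeks. The CHOW libraries split, with 79.1 and 65.2 TPM in replicates 1 and 2 and 11.2, 9.26 and 13.3 TPM in replicates 3, 4 and 5. The HFD libraries were close together, between 4.20 and 9.38 TPM with a median of 5.79 TPM. Only HFD replicate 6 reached above the lowest CHOW value. The log2 fold change was -1.84 (SE 0.62, 95% interval -3.12 to -0.56, limma adjusted p = 0.0497). This call rested on single libraries: of 11 libraries left out in turn, it was lost with 9 and kept without CHOW replicate 4 or HFD replicate 6. Without CHOW replicate 1 the log2 fold change was -1.42 (adjusted p = 0.128). The 2 CHOW libraries with high Ms4a4c also had the highest monocyte scores of their group. The score, the mean log2(TPM + 1) of 10 monocyte genes, was 5.97 and 6.42 there, 4.77 to 5.00 in the other 3 CHOW libraries and 4.50 to 4.73 on HFD. Their interferon response scores, 5.47 and 5.19, were the lowest of the CHOW group. The part of monocyte RNA in the Ms4a4c result was not tested.

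The 3 Ms4a6 genes did not pass the test at 20 weeks. Ms4a6d was at 101, 192, 53.3, 91.8 and 67.0 TPM on CHOW and between 69.0 and 130 TPM on HFD, with a median of 93.4 TPM. The CHOW values surrounded the HFD values, and the log2 fold change was 0.02 (95% interval -0.64 to 0.67, limma adjusted p = 0.978). Ms4a6c ranged from 28.5 to 133 TPM on CHOW and from 27.2 to 73.4 TPM on HFD, and Ms4a6b from 28.7 to 54.7 TPM and from 21.4 to 45.2 TPM. Their log2 fold changes were -0.17 and -0.28. The summed level of the 3 Ms4a6 genes averaged 207 TPM on CHOW and 178 TPM on HFD, which gave a log2 fold change of -0.11 (SE 0.31, 95% interval -0.75 to 0.53, limma adjusted p = 0.843). The intervals leave room for a difference of moderate size in either direction. Thus 3 of the 6 genes were called at 20 weeks, 1 higher and 2 lower, and the median log2 fold change of the 6 was between those of Ms4a6b and Ms4a6c, against 0.08 over all genes tested. Of all tested genes, 0.72% had a lower log2 fold change than Ms4a4c, 2.75% a lower one than Ms4a4a and 92.7% a lower one than Ms4a7.

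**Figure D1:**
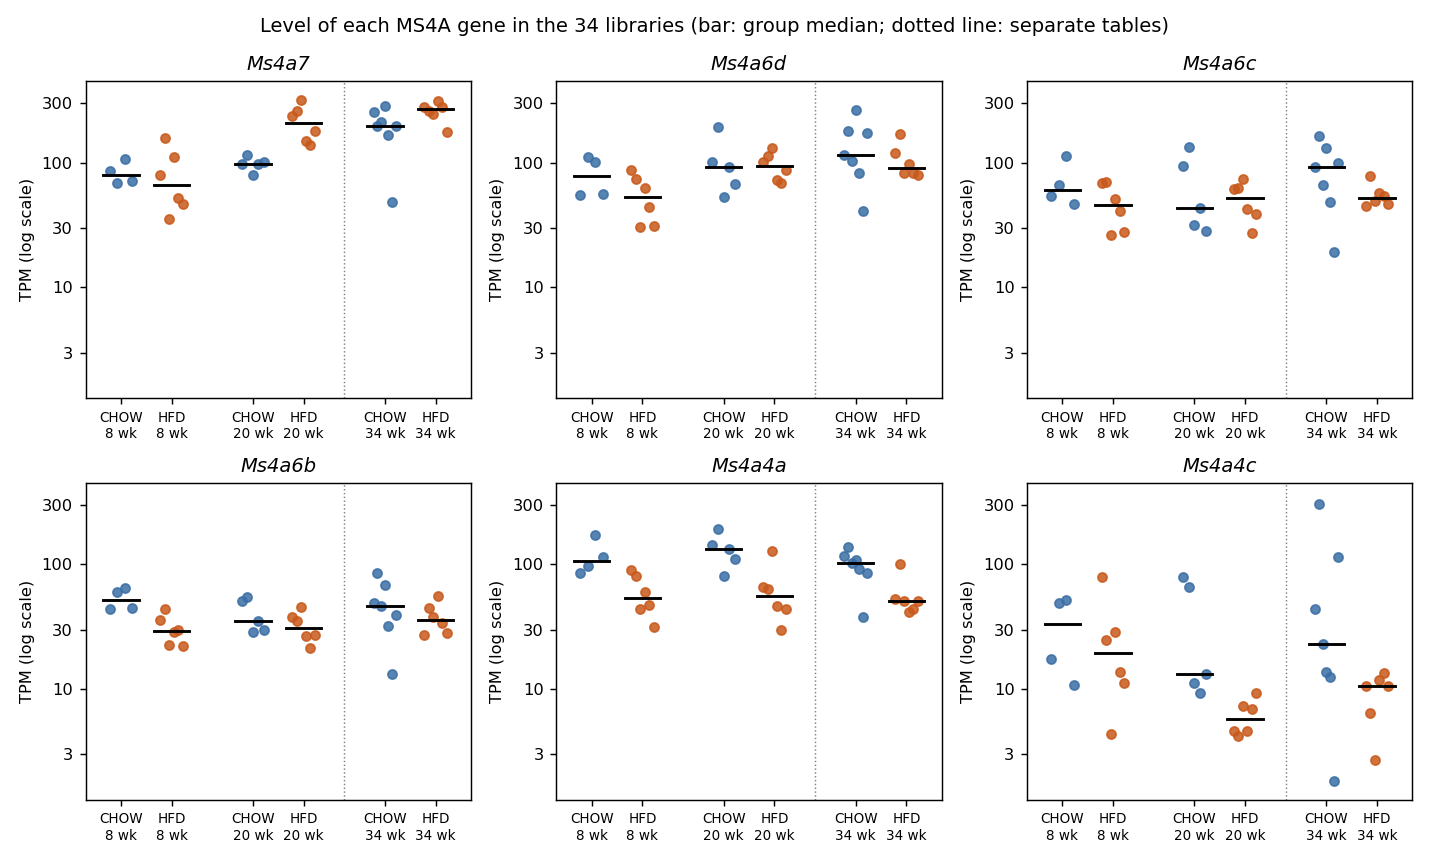
Level of each of the 6 MS4A genes in every library (TPM, log axis) by diet and weeks on the diet, with CHOW in blue and HFD in orange, 1 point per library and a bar at the group median. Ms4a7 at 20 weeks lies higher in all 6 HFD libraries, Ms4a4a and Ms4a4c lie lower in most, and the tables of 8 and 20 weeks and of 34 weeks were made apart.

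Removal of the libraries with RNA of another tissue left the 20 week values of Ms4a7 and Ms4a4a past the test. Without them Ms4a7 had a log2 fold change of 1.17 (limma adjusted p = 0.0238), Ms4a4a one of -1.13 (adjusted p = 0.0377) and Ms4a4c one of -1.89 (adjusted p = 0.128). Adipocyte genes moved with diet at 20 weeks, since 8 of 10 were lower on HFD and 1, Lep, was higher. Their score was 4.52 to 5.45 on CHOW and 3.53 to 4.20 on HFD, without overlap. With that score as a covariate no call was left, and Ms4a7 had a log2 fold change of -0.05 (adjusted p = 0.966) and Ms4a4a one of -1.92 (adjusted p = 0.0937). Score and diet cannot be told apart here, because the groups share no range of the score. The share of all genes called with this covariate is not given here. The pan-macrophage score was 7.12 to 8.15 on CHOW and 7.85 to 8.52 on HFD. When each gene was taken relative to it, Ms4a4a (-1.78, adjusted p = 1.64e-05), Ms4a4c (-2.48, adjusted p = 0.00148), Ms4a6b (-0.92, adjusted p = 0.000592), Ms4a6c (-0.81, adjusted p = 0.00939) and Ms4a6d (-0.62, adjusted p = 0.0230) were lower on HFD and passed. This scale moved all genes of a library alike: 36.5% of all genes passed on it, 34.8% as lower, and the median over all genes was -0.56. Ms4a7 kept a positive value that did not pass (0.41, adjusted p = 0.0947). On this scale Ms4a7 was the one gene of the 6 whose value was not negative.

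The makeup of the MS4A RNA can be described by the share of each gene in the sum of the 6. Summed over the 6 genes the level was 472 ± 187 TPM on CHOW and 461 ± 151 TPM on HFD at 20 weeks. Within that sum Ms4a7 took 22.7 ± 6.199% on CHOW and 46.2 ± 1.64% on HFD, with HFD libraries between 43.6% and 48.2% and CHOW libraries between 15.4% and 29.1%. Ms4a4a took 28.6 ± 3.25% and 13.1 ± 2.86%, and Ms4a4c 6.54 ± 4.83% and 1.49 ± 0.74%. The diets did not overlap for Ms4a4a but did for Ms4a4c, with a lowest CHOW share of 2.26% and a highest HFD share of 2.45%. Ms4a6d held 20.7 ± 3.17% and 21.1 ± 1.83%, Ms4a6c 12.8 ± 4.11% and 11.03 ± 1.28%, and Ms4a6b 8.66 ± 1.00% and 7.11 ± 0.54%, with overlap between the diets in each. The mean sum was thus similar between diets at 20 weeks while its leading gene differed. It was lower on HFD at the other times, with 437 ± 126 TPM on CHOW and 299 ± 130 TPM on HFD at 8 weeks. At 34 weeks it was 637 ± 294 and 523 ± 91.9 TPM. The sum of the 6 was not tested at any time. At 8 weeks Ms4a7 took 19.7 ± 4.31% on CHOW and 26.2 ± 6.40% on HFD, with overlap, and at 34 weeks 31.9 ± 7.26% and 49.6 ± 6.205%, where the lowest HFD library (39.3%) lay just above the highest CHOW library (38.3%). These shares are a description and were not tested, and they do not depend on the scaling of a library. Within a library they add up to the whole, so a larger share of Ms4a7 goes with a smaller joint share of the other genes. The missing overlap for Ms4a4a is therefore not separate from that for Ms4a7. How often shares of other genes fail to overlap was not examined.

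**Figure D2:**
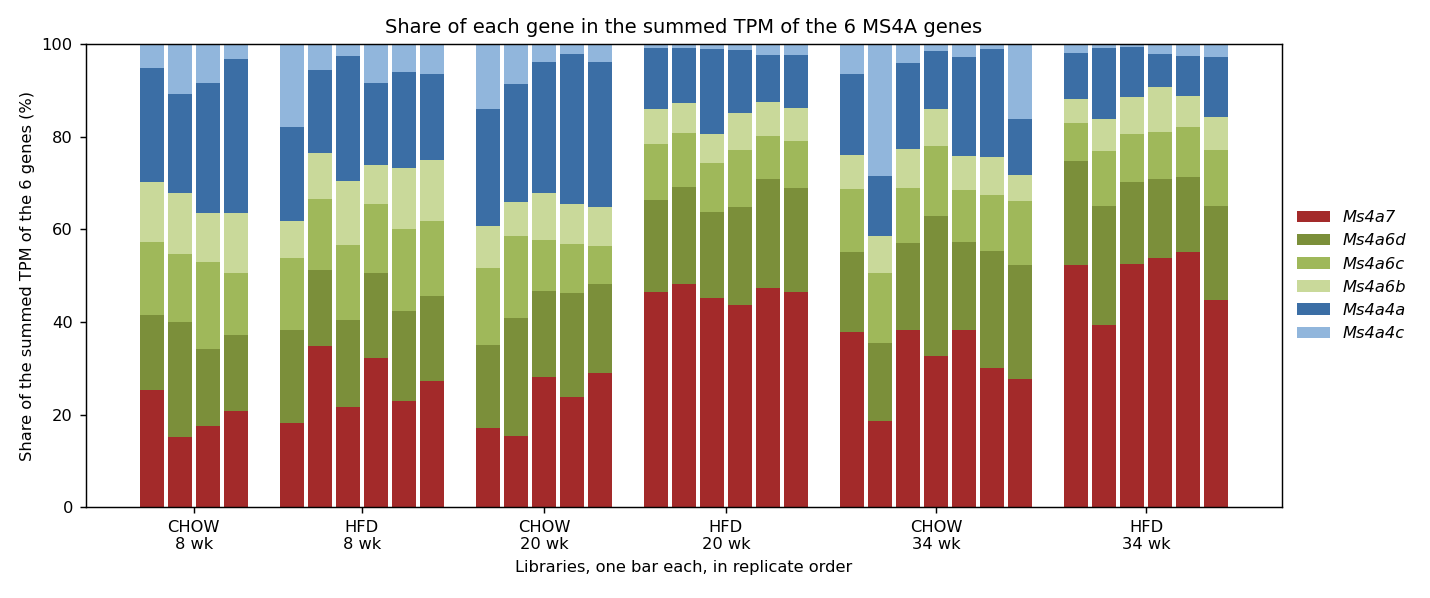
Share of each gene in the summed TPM of the 6 MS4A genes, in percent, with 1 bar per library and libraries grouped by diet and time. The share of Ms4a7 lies between 43.6% and 48.2% in the 6 HFD libraries of 20 weeks and between 15.4% and 29.1% in the 5 CHOW libraries.

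A ratio within a library removes the amount of macrophage RNA that both genes have in common, if the same cells carry them. Whether the same cells carry Ms4a7 and Ms4a4c was not tested. The log2 ratio of Ms4a7 to Ms4a4c, as the difference of log2(TPM + 1), was 1.99 ± 1.34 on CHOW and 4.88 ± 0.66 on HFD at 20 weeks. Every HFD library, from 4.11 to 5.64, lay above every CHOW library, from 0.29 to 3.27. The difference of 2.89 had an exact two-sided permutation p of 0.00433, the smallest that 5 against 6 libraries can give, and an adjusted p of 0.00699 over the 3 times. Without HFD replicates 3, 4 and 5 it was 3.06 (exact permutation p = 0.0357). At 34 weeks the ratio was 2.55 ± 1.84 on CHOW and 4.76 ± 0.75 on HFD, a difference of 2.22 (exact two-sided permutation p = 0.00466, adjusted p = 0.00699), and the ranges overlapped between 3.92 and 4.26. Without the libraries that carried RNA of another tissue, which left 4 per group, the difference at 34 weeks was 2.39 (exact permutation p = 0.0571). At 8 weeks it was 1.595 ± 0.99 on CHOW and 1.85 ± 0.97 on HFD, a difference of 0.26 (exact two-sided permutation p = 0.657). Only at 20 and 34 weeks did the ratio differ between diets by more than the spread between libraries, and the change of the difference between times was not tested. The lowest CHOW ratios were those of the libraries with the highest monocyte scores of their group. They were 0.29 and 0.82 in replicates 1 and 2 at 20 weeks, and -0.62 and 0.76 in replicates 2 and 7 at 34 weeks. Replicate 7 at 34 weeks also carried adipocyte RNA (18797 TPM). The part of monocyte RNA in the ratio was not tested.

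The ratio of Ms4a7 to Ms4a4a, looked at after the values had been seen and given with no test, uses genes that share no transcript words with paralogs. In TPM it was 0.605 to 0.990 on CHOW and 2.47 to 4.70 on HFD at 20 weeks, so that Ms4a4a was the more abundant in all 5 CHOW libraries and Ms4a7 in all 6 HFD libraries. At 8 weeks it ran from 0.622 to 1.02 on CHOW and from 0.807 to 1.93 on HFD. At 34 weeks it ran from 1.29 to 2.63 on CHOW and from 2.56 to 7.48 on HFD, with an overlap of 1 library per diet.

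**Figure D3:**
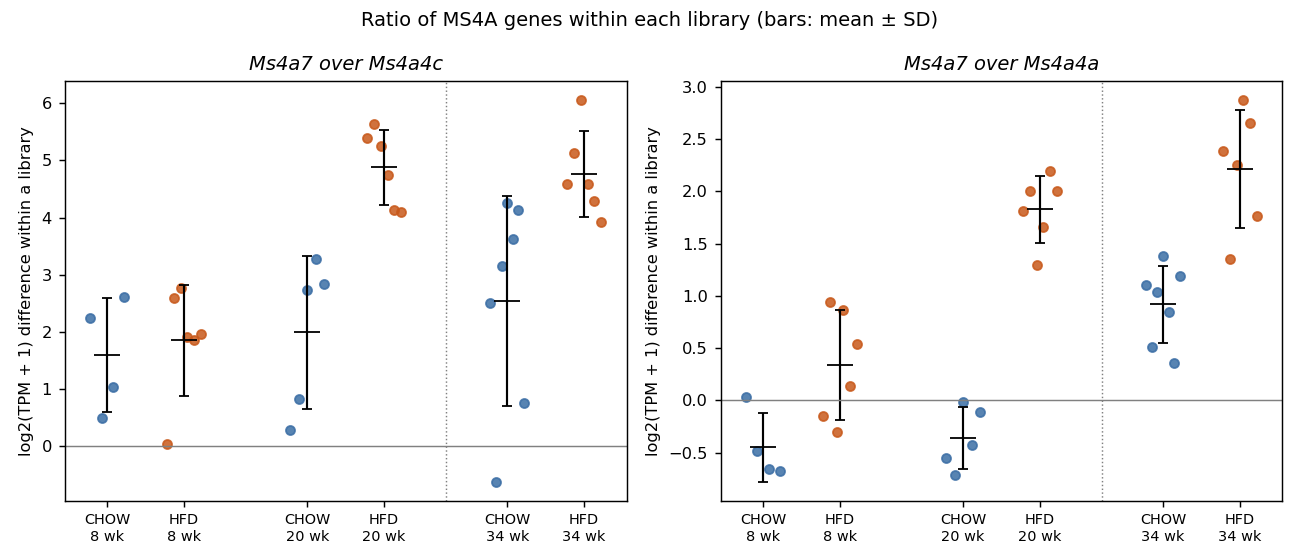
Difference of log2(TPM + 1) between Ms4a7 and Ms4a4c (left) and between Ms4a7 and Ms4a4a (right) within each library, with CHOW in blue, HFD in orange and bars for the group mean ± SD. At 20 weeks both ratios are higher in all HFD libraries than in any CHOW library, while at 8 weeks the groups overlap.

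At 8 weeks none of the 6 genes passed the test, as did 0.0238% of all genes, 4 of 16808. The lowest adjusted p was that of Ms4a6b, 0.216, and 1630 genes had an unadjusted p under 0.05. All 6 log2 fold changes were negative. Ms4a6b was at 44.2, 59.4, 64.9 and 44.9 TPM on CHOW and from 22.3 over a median of 29.2 to 44.1 TPM on HFD. Its groups just missed each other, as they did in 2.11% of all genes, with a log2 fold change of -0.81 (SE 0.23). Ms4a4a was at 84.6, 96.7, 171 and 115 TPM on CHOW and between 31.5 and 89.2 TPM on HFD, which gave a log2 fold change of -1.01 with an SE of 0.34 (limma adjusted p = 0.324). In the exact two-sided permutation test, unadjusted, Ms4a6b had p = 0.00952 and Ms4a4a p = 0.0143. The values of Ms4a6d (-0.59), Ms4a6c (-0.58), Ms4a4c (-0.48) and Ms4a7 (-0.22) were smaller than these, and the adjusted p of each was 0.590 or higher. HFD replicate 3, with seminal vesicle RNA, was the lowest HFD library for Ms4a4c, Ms4a6c, Ms4a6d and Ms4a7 and the second lowest for Ms4a4a and Ms4a6b, and without it the log2 fold change was -0.73 for Ms4a6b and -0.95 for Ms4a4a. With HFD replicate 4 left out as well, an alternative chosen after seeing the data, these were -0.70 and -0.96. HFD replicate 6, with the most hemoglobin RNA, was the lowest HFD library for Ms4a4a and Ms4a6b. With each library left out in turn, the log2 fold change ran from -0.92 to -0.71 for Ms4a6b and from -1.15 to -0.81 for Ms4a4a.

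At 34 weeks, where the libraries were tested in a table of their own, none of the 6 passed, against 0.243% of 13982 genes tested, and 1848 genes had an unadjusted p under 0.05. Ms4a4a was at 117, 139, 102, 107, 92.2, 37.8 and 84.8 TPM on CHOW and from 41.3 over a median of 50.9 to 101 TPM on HFD. All CHOW libraries but replicate 6 lay above all HFD libraries but replicate 2, and the log2 fold change was -0.75 (SE 0.27, limma adjusted p = 0.280). Without the libraries with RNA of another tissue it was -1.30 (adjusted p = 0.0385). Ms4a4c spanned 1.83 to 305 TPM on CHOW and 2.71 to 13.4 TPM on HFD, and its log2 fold change of -1.67 had an SE of 0.84 (adjusted p = 0.402). The highest CHOW values were those of replicates 2 (305 TPM) and 7 (115 TPM), and the other CHOW libraries ran from 1.83 TPM in replicate 6 to 43.8 TPM. Replicates 2 and 7 had the highest monocyte scores (6.24 and 6.16), interferon response scores (6.82 and 5.96, the others 4.10 to 4.87) and neutrophil scores (3.63 and 4.12) of the group, and the part of these in the Ms4a4c values was not tested. Ms4a7 was at 254, 198, 211, 282, 166, 48.7 and 195 TPM on CHOW and between 176 and 309 TPM on HFD, which gave a log2 fold change of 0.55 with an SE of 0.33 (adjusted p = 0.472). It was 0.25 without CHOW replicate 6, and 0.08 without all libraries of another tissue. The log2 fold changes of Ms4a6b, Ms4a6c and Ms4a6d were -0.19, -0.45 and -0.23. None of the 6 had groups without overlap, as 0.937% of all genes did. At 34 weeks on CHOW the median of Ms4a7 was 198 TPM, a level close to that of HFD at 20 weeks, but these values stand in separately made tables, between which nothing was tested.

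Between 8 and 20 weeks on HFD, 1 of the 6 genes passed the test, as did 8.78% of all genes tested, 6.12% as higher and 2.65% as lower. Ms4a7 rose from a mean of 80.1 ± 46.01 TPM to 213 ± 70.0 TPM, which gave a log2 fold change of 1.52 with an SE of 0.28 (limma adjusted p = 0.00174). A single HFD library of 8 weeks, replicate 2 with 156 TPM, overlapped with the 20 week range. Without the libraries with RNA of another tissue the log2 fold change was 1.45 (adjusted p = 0.0102). With the adipocyte score as a covariate it was 0.40 (adjusted p = 0.663). Relative to the pan-macrophage score it was 0.84 (adjusted p = 0.00395) and 4 other members were called lower, on a scale on which 46.9% of all genes passed, 45.6% as lower. Ms4a6d averaged 55.0 and 94.99 TPM, which gave a log2 fold change of 0.85 with an SE of 0.30 (adjusted p = 0.0756). Ms4a4c averaged 26.9 and 6.19 TPM, which gave a log2 fold change of -1.50 with an SE of 0.59 (adjusted p = 0.105), and its 8 week levels were 78.4, 24.9, 4.34, 28.7, 13.7 and 11.1 TPM. The library with 78.4 TPM, replicate 1, had the highest monocyte (6.12), interferon response (4.93) and neutrophil (4.08) scores of its group. Ms4a4a, Ms4a6b and Ms4a6c had log2 fold changes between 0.03 and 0.14. Of the 6 genes, Ms4a7 was the one whose change with time on HFD passed the test over all genes, and the 95% interval of Ms4a6d, 0.23 to 1.48, also lay above 0.

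On CHOW none of the 6 passed between 8 and 20 weeks, against 0.613% of all genes, and 2104 genes had an unadjusted p under 0.05. The log2 fold changes ran from -0.45 for Ms4a6b to 0.25 for Ms4a7, with a lowest adjusted p of 0.464. The interaction of diet and time, the HFD effect at 20 weeks less the one at 8 weeks, also called none of the 6, against 0.297% of all genes, with 2318 at an unadjusted p under 0.05. The values farthest from 0 were those of Ms4a4c (-1.35, SE 0.90, limma adjusted p = 0.487) and Ms4a7 (1.27, SE 0.43, limma adjusted p = 0.258). The stronger HFD effect on Ms4a7 at 20 than at 8 weeks therefore did not pass the test over all genes.

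**Figure D4:**
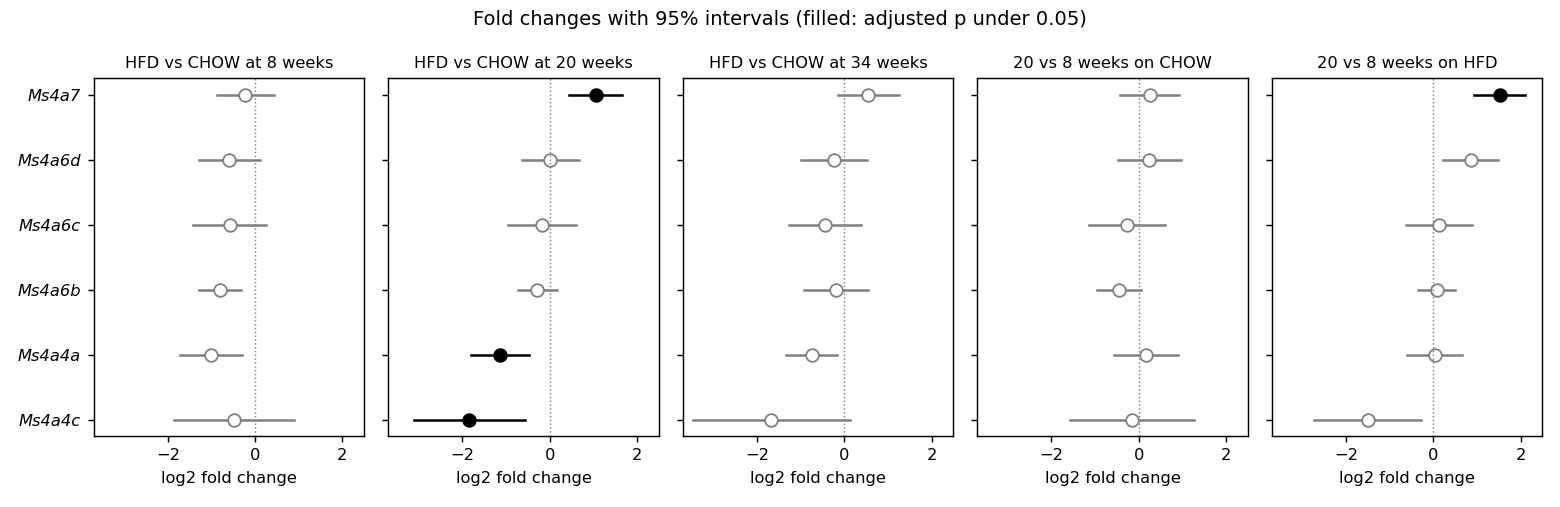
Log2 fold changes of the 6 genes (horizontal axis) in the 3 diet comparisons and the 2 time comparisons, with 95% intervals and filled points where the adjusted p was under 0.05. Filled points are Ms4a7, Ms4a4a and Ms4a4c at 20 weeks and Ms4a7 between 8 and 20 weeks on HFD.

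The order of the levels can be compared because TPM is corrected for length. The leading gene differed between the diets beyond the SD at 20 weeks, while at 34 weeks both diets had the same 4 genes at the top in the same order. On CHOW at 8 weeks Ms4a4a (117 TPM) led, followed by Ms4a7 (83.5 TPM), Ms4a6d (81.1 TPM), Ms4a6c (70.3 TPM), Ms4a6b (53.3 TPM) and Ms4a4c (32.2 TPM). The neighbours from Ms4a7 down to Ms4a6b did not differ by more than the SD of their difference within libraries. On CHOW at 20 weeks Ms4a4a (131 TPM) again led, beyond that SD, over Ms4a6d (101 TPM) and Ms4a7 (98.5 TPM), and no pair of neighbours below it differed by more than the SD. On HFD at 8 weeks Ms4a7 (80.1 TPM), Ms4a4a (58.9 TPM) and Ms4a6d (55.0 TPM) were not separated. On HFD at 20 weeks Ms4a7 (213 TPM) led, and Ms4a6d (94.99 TPM), Ms4a4a (63.1 TPM), Ms4a6c (51.0 TPM), Ms4a6b (32.2 TPM) and Ms4a4c (6.19 TPM) followed. Ms4a4a and Ms4a6c were the only neighbours there that did not differ by more than the SD, though Ms4a4a was the higher in 6 of 6 libraries. HFD at 34 weeks had the same order, from Ms4a7 (258 TPM) to Ms4a4c (9.27 TPM), and again all neighbours but Ms4a4a and Ms4a6c differed by more than the SD. CHOW at 34 weeks was led by Ms4a7 (194 TPM) over Ms4a6d (137 TPM) in 7 of 7 libraries, and Ms4a4a (97.2 TPM), Ms4a6c (88.2 TPM), Ms4a4c (73.5 TPM) and Ms4a6b (47.7 TPM) followed, with no neighbours below Ms4a7 separated by more than the SD. The order is that of means, and Ms4a4c, at 305 TPM in replicate 2, was above Ms4a6b in only 2 of 7 libraries.

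Genes whose levels followed each member most closely over the 21 libraries of 8 and 20 weeks were sought among all genes tested in both tables. The points are whole pellets that share the amount of macrophage RNA, so that r is a description of likeness and carries no test. Ms4a6c was most like Clec4a1, a lectin of myeloid cells (Pearson r 0.941 over 21 libraries and 0.742 over the 13 of 34 weeks), Fam49b (0.931 and 0.881) and Bst1 (0.915 and 0.853). Ms4a6b was most like the same Clec4a1 (0.885 and 0.854), Ms4a6c itself (0.878 and 0.917) and Mrc1, the mannose receptor (0.876 and 0.466). Ms4a4a was most like Aoah, which inactivates endotoxin (0.889 and 0.487), Mrc1 (0.867 and 0.415) and Ms4a6b (0.843 and 0.673). Mrc1 also belongs to the resident perivascular macrophage genes used below. The values for Ms4a4a were lower at 34 weeks, and so was that of Ms4a6b with Mrc1.

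Among the genes most like Ms4a6d were Msr1, a scavenger receptor of macrophages (0.914 and 0.767), and Adam9 (0.903 and 0.717). Ms4a7 was most like Osbpl8, an oxysterol-binding protein (0.943 and 0.846), Hk3, a hexokinase of myeloid cells (0.934 and 0.900), and Plbd2, a lysosomal protein (0.933 and 0.410). Ms4a4c was most like Napsa, an aspartic protease (0.898 and 0.784), Gm9733 (0.881 and 0.768) and Gda, guanine deaminase (0.879 and 0.559). Ms4a7 and Ms4a4c shared none of their 3 nearest genes with each other or with the other members. Taking each library as its deviation from the group mean, and so without the difference between diets, r over the 21 libraries was between 0.776 and 0.968 for the pairs named, and without the 2 libraries farthest from the member's median it was between 0.785 and 0.947.

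Other macrophage genes moved at 20 weeks as well, and set the frame for the MS4A genes. All 10 lipid-associated macrophage genes were higher on HFD, from Cd63, a lysosomal tetraspanin (0.84), to Atp6v0d2, a subunit of the lysosomal proton pump (4.25), with a median log2 fold change of 2.53 against 0.08 over all genes. Of 10 resident perivascular macrophage genes 6 were lower and none higher, from Cbr2 (-1.48) to the lectin Cd209f (-2.55), with a median of -1.49. Of the 10 pan-macrophage genes 3 were higher, from Lyz2, lysozyme (0.88), to Cd68 (1.43), and none lower. The log2 fold change of Ms4a7 (1.05) was smaller than those of 9 of the 10 lipid-associated genes and within the range of the called pan-macrophage genes. Those of Ms4a4a (-1.14) and Ms4a4c (-1.84) had the sign of the called resident genes. The called monocyte, interferon response, mesothelial and hemoglobin genes had that sign as well, so it is not particular to the resident list. Mrc1 of the resident list was not called. Neither was Folr2, named after its values were seen, with means of 395 TPM on CHOW and 464 TPM on HFD. Ms4a6b, Ms4a6c and Ms4a6d were not called in either direction.

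Among 12 partners of MS4A4A and TREM2 and of the ITAM signalling they feed, 4 were higher and none lower at 20 weeks, with a median of 0.56. Trem2, the lipid receptor, had a log2 fold change of 3.23 (SE 0.46, limma adjusted p = 0.000169), its adaptor Tyrobp 1.31 (adjusted p = 0.00665), Clec7a, which encodes dectin-1, 1.45 (adjusted p = 0.0130), and Syk, the kinase below them, 0.81 (adjusted p = 0.0362). Clec7a and Tyrobp were named after their values were seen. Trem2 had no overlap between the diets, with 32.7 to 266 TPM on CHOW and 492.9 to 909 TPM on HFD, and Clec7a overlapped, with 30.9 to 119 TPM and 115 to 212 TPM. Of 10 monocyte genes 4 were lower, from Ccr2, the chemokine receptor (-1.31), to Hp, haptoglobin (-1.82), which adipocytes also make and which reached 8628 TPM on CHOW at 34 weeks. Nr4a1 of the same list was at 257 TPM on CHOW and 450 TPM on HFD (0.65, adjusted p = 0.271). Of 10 interferon response genes 8 were lower, from Mx1 (-1.01) to Rsad2 (-1.79), and the medians of the monocyte and interferon lists were -0.82 and -1.19. The CHOW group of 20 weeks had the highest median interferon response score of the 4 groups, 5.96 against 4.66 on HFD. At 8 weeks the medians were 4.61 on CHOW and 4.45 on HFD. Between 8 and 20 weeks, 3 of the 10 were called higher on CHOW and 2 on HFD, and none lower. At 8 weeks none of these 7 lists, with the remaining MS4A genes as the seventh, had a called gene, and at 34 weeks the remaining MS4A genes alone had 1.

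**Figure D5:**
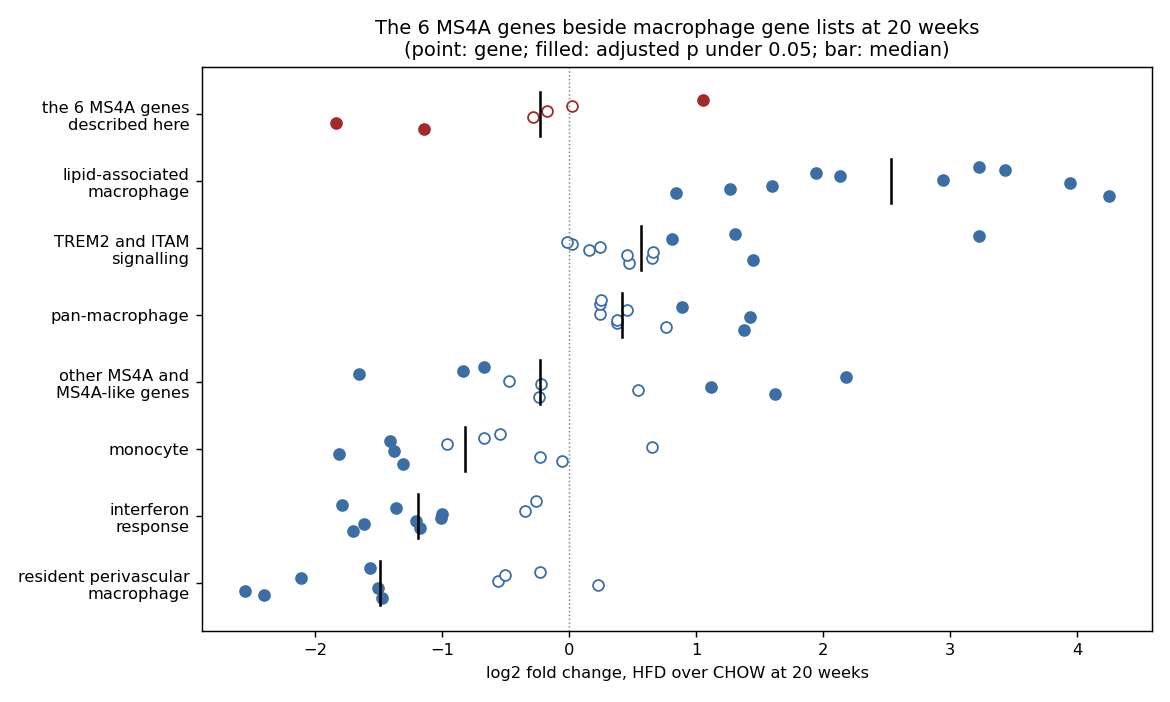
Log2 fold change, HFD over CHOW at 20 weeks, of the 6 MS4A genes and of 7 gene lists, with 1 point per gene, filled where the adjusted p was under 0.05, and a bar at the list median. The 10 lipid-associated macrophage genes all lie at 0.84 or higher, and the 6 MS4A genes spread from -1.84 to 1.05.

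The other genes of the family were read beside these. Of 15 listed MS4A and MS4A-like genes 10 were tested at 20 weeks, of which 3 were higher and 3 lower, with a median of -0.23. Ms4a8a was lower, with 22.9 ± 6.80 TPM on CHOW and 6.70 ± 2.61 TPM on HFD (log2 fold change -1.65, SE 0.24, limma adjusted p = 0.000176), and so were Tmem176a (-0.84, adjusted p = 0.0208) and Tmem176b (-0.67, adjusted p = 0.0263), MS4A-like proteins of antigen-presenting cells. Ms4a2 of mast cells was higher (1.11, adjusted p = 0.0253), along with 8 of 10 mast cell genes, Ms4a2 among them. It was also the single family gene called at 34 weeks (1.93, adjusted p = 0.0358). Ms4a5 (2.18, adjusted p = 0.0467) and Ms4a13 (1.62, adjusted p = 0.0456) were higher too. Their HFD levels ran from 0.272 to 48.9 TPM and from 0 to 16.8 TPM, in a group in which the summed level of 8 germ cell genes ran from 14.1 to 12422 TPM against 0.337 to 249 TPM on CHOW, and the part of germ cell RNA in these 2 results was not tested.

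Ms4a4d (-0.48, adjusted p = 0.0865), Ms4a14 (0.54, adjusted p = 0.136), Ms4a1 (-0.24, adjusted p = 0.707) and Ms4a4b, a T cell gene and the one that shares most words with Ms4a4c (-0.22, adjusted p = 0.616), did not pass at 20 weeks. Between 8 and 20 weeks on HFD, Ms4a2 (1.71, adjusted p = 0.00122) and Ms4a14 (1.51, adjusted p = 0.000299) rose and Ms4a8a fell (-1.82, adjusted p = 3.33e-05). Ms4a3, Ms4a10, Ms4a12, Ms4a15 and Ms4a18 did not reach the filter on low values, with group means of at most 0.33 TPM. Outside the macrophage genes, 8 of 8 mesothelial and 4 of 4 hemoglobin genes were lower at 20 weeks, 2 of 8 dendritic cell genes (Clec10a and Cd209a) and 1 of 8 neutrophil genes (Retnlg) were lower, and B cell and endothelial genes had none called. Of 10 T cell genes 1 (Il7r) was higher and 2 were lower, the lowest being Trac, of 8 fibroblast and progenitor genes 1 (Lum) was higher and 3 were lower, the lowest being Dpp4, and of 8 germ cell genes 1 (Gapdhs) was higher.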

How the data were processed

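RNA-seq of the SVF was analysed in 34 libraries, with groups and replicate numbers taken from the sample titles. After quality control (FastQC, MultiQC) and trimming (Trimmomatic), the authors estimated expression with Salmon from gencode M10, using its coding transcripts and lncRNAs (tool versions: not given in the sources used here), and they deposited TPM per gene in 1 table for 8 and 20 weeks and another for 34 weeks. TPM sums to 1000000 in each library and keeps no depth, so depth is unknown and no counting interval is given. Gene IDs were matched to gencode M21 (31791 of 32098 found, 24748 with the same version). The older annotation may set other gene limits.

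Values were taken as log2(TPM + 1), a scale that understates changes of low genes. A gene was tested if at least 4 libraries (8 and 20 weeks) or 6 libraries (34 weeks) reached 1 TPM, and the test was that of limma 3.58.1 in R 4.3.3 (1 mean per group, eBayes with trend, two-sided, Benjamini-Hochberg adjustment over all genes, threshold 0.05). The 21 libraries of 8 and 20 weeks shared 1 fit, and 34 weeks was fitted alone. Nothing in the labels ties a library to 1 mouse, so p-values measure the spread between libraries. The ratio of Ms4a7 to Ms4a4c was tested with an exact permutation test (scipy 1.17.1). The scripts were tested on simulated data. No libraries were duplicates: in every pair within a table, at least 93.67% of tested genes differed by over 0.01 on the log2 scale. The members and all 19 gene lists were chosen with earlier results of these data known. Named genes were the 6 members, the other family genes, the 3 genes most like each member (for Ms4a6d, 1 of them is not reported here), and, from each list, the called genes with the highest and lowest log2 fold change at 20 weeks. Mixed-tissue libraries, scalings, pseudocount, filters, covariates, the replicate block and leaving out each library were tried as alternatives. Promoter windows are from RefSeq, GRCm38.p6. Protein sequences were not used here. Groups in the tables fitted apart were not tested against each other.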

Additional observations from a re-analysis of the deposited data

Results flagged for a closer look

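In 42 sets of values, those of the 6 genes and of the summed Ms4a6 genes in each group of 4 to 7 libraries, 5 had a highest library whose gap to the next took more of the range than Dixon's 95% critical value. About 1 in 20 sets would do so if the values were normal and the sets independent. TPM was used without a log scale and the sets share libraries, so this rate is only a rough guide here. Ms4a4a stood at 129 TPM in HFD 20 week replicate 3, with the next library at 66.4 TPM and a gap of 0.63 of the range. In HFD 34 week replicate 2, Ms4a4a stood at 101 TPM (0.81 of the range) and Ms4a6c at 78.3 TPM (0.63). Both libraries carried germ cell RNA. Ms4a4c stood at 305 TPM in CHOW 34 week replicate 2 (0.63) and at 78.4 TPM in HFD 8 week replicate 1 (0.67), the libraries with the highest monocyte and interferon response scores of their groups.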

How the results depend on the processing

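Over the alternatives tried, 605 of 678 values of single members kept direction and side of the threshold, and 133 of 149 counts of called members stayed within 1.5 times. The number called at 8 weeks was 0, and 2 by an exact permutation test at an unadjusted p. At 20 weeks it was 3, against 0 with the adipocyte score as covariate, 5 relative to the pan-macrophage score (where 36.5% of all genes passed), and 1 to 3 with each library left out. At 34 weeks it was 0, against 1 with sample quality weights, without the libraries with RNA of another tissue, and by the exact test. Between 8 and 20 weeks on HFD it was 1, against 2 with quantile normalization, with quality weights or with the replicate block, 0 with the adipocyte covariate, 5 relative to the pan-macrophage score (where 46.9% of all genes passed, 45.6% as lower), 3 by the exact test, and 1 to 2 with each library left out. The exact test was unadjusted and run on the members alone. By limma an unadjusted p under 0.05 was had by 1630 of 16808 genes at 8 weeks and 1848 of 13982 at 34 weeks. Between times on HFD it was had by 4571 of 16808. Shares of all genes called with quality weights, the block, the adipocyte covariate or without other-tissue libraries are not given here. The counts from these settings are therefore no result about the members. Same-numbered libraries had correlations of deviations from -0.105 to 0.404 over 34 pairs, 16 of them over 0.1. In no comparison was every pair over 0.1, the most being 4 of 6 pairs between times on HFD, where 8 of 12 libraries correlated best with their own number, so the numbers were not taken as pairing the libraries. The replicate block kept 3 calls at 20 weeks.

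Directions turned as follows, in log2 fold change, and the cause was not tested. With quality weights Ms4a4c was 0.23 and Ms4a7 0.13 at 8 weeks, and Ms4a6c 0.21 at 20 weeks. At 20 weeks Ms4a6d was -0.045 with median-ratio scaling, -0.076 with quantile normalization, -0.86 with the adipocyte covariate and -0.62 relative to the pan-macrophage score. With the adipocyte covariate Ms4a7 was -0.050 at 20 weeks, -0.10 at 34 weeks and -0.62 between times on CHOW. Between times on HFD, Ms4a4a was -0.039 (median-ratio), -0.16 (quantile), -0.76 (adipocyte), -0.65 (pan-macrophage), -0.024 (without other-tissue libraries) and -0.010 (without these and HFD 8 week replicate 4, chosen after seeing the data), Ms4a6b -0.10 (quantile), -0.50 (adipocyte) and -0.61 (pan-macrophage), Ms4a6c -0.043 (quantile), -1.06 (adipocyte) and -0.55 (pan-macrophage), and Ms4a6d -0.044 (adipocyte). With each library left out, the 20 week values ran from -0.40 to 0.14 for Ms4a6c, from -0.17 to 0.28 for Ms4a6d and from -0.29 to 0.14 for the summed Ms4a6 genes. Those between times on HFD ran from -0.20 to 0.22 for Ms4a4a, from -0.030 to 0.18 for Ms4a6b and from -0.0079 to 0.30 for Ms4a6c. The ratio of Ms4a7 to Ms4a4c at 8 weeks ran from -0.11 to 0.62, and at 34 weeks without other-tissue libraries it was 2.39 (exact permutation p = 0.0571). Without a filter on low values the Ms4a4c call at 20 weeks was lost (limma adjusted p = 0.0902).

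Beside Ms4a7, the calls over all genes at 20 weeks numbered 2405 (65.1% higher), 3608 with median-ratio scaling (57.6% higher) and 3512 with quantile normalization (45.9% higher), the last of which moved the median of all genes from 0.08 to -0.06. Between times on HFD they numbered 1475 (69.8% higher), 2441 (59.1%) and 2745 (40.7%), and for the interaction 50 (54.0% higher), 85 (35.3%) and 102 (16.7%). TPM keeps no depth, so what depth limits could not be set.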
